A study of Mus musculus with 20 samples.

Results

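Translation initiation factors load the initiator tRNA and the small ribosomal subunit onto an mRNA, scan to the start codon and release the subunit for joining. Their genes carry the Eif symbols, and the data describe how their introns were removed from RNA that was still bound to chromatin. Members were all introns whose transcript belongs, in the GENCODE release M21 mouse annotation, to a protein-coding gene with a symbol from Eif1 to Eif6. That gave 500 introns of 51 genes (51 transcripts), out of 68794 introns of 8397 transcripts in the deposited table. Another 4 of the 55 annotated genes of this kind (Eif2a, Eif3j2, Eif4e1b and Eif4e3) have no line in the table used here.

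The cells were murine erythroleukemia (MEL) cells, a leukemic line blocked as an erythroid precursor, of wild type genotype per the labels. The uninduced group had no DMSO, and the induced group was kept for 5 days in 2% DMSO, which starts red cell maturation in this line. Each group had 4 long-read samples, 2 biological replicates run on 2 PacBio instruments, and all were chromatin RNA depleted of polyadenylated and ribosomal RNA. The tables hold 1 line per intron and group, so each group is 1 pool, no value has a replicate error, and each test compares 2 pools of libraries and not 2 conditions. The other 12 of the 20 samples, with an inserted human globin gene or from PRO-seq, were not analysed here.

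Splicing efficiency, called coSE, is the share of reads covering an intron in which that intron was already removed. A value of 1 means that every read was spliced, and a value of 0 that none was. A long read covers several introns of its gene, so introns of a gene share molecules and are not replicates. Each read was counted once at every intron it covered, and these counts are called observations when summed over introns. Member introns held 6031 of 416379 uninduced observations and 4059 of 279371 induced ones, 1.45% in both. At least 10 reads, the minimum for a coSE value here, were present at 198 member introns of 27 genes and at 145 of 20 genes, with a median depth of 18 and 17 reads. In 22 member genes no intron reached 10 reads in either pool. The 14 erythroid marker genes of the list used were all in the table. They took 4647 of every 1000000 uninduced observations and 53338 of every 1000000 induced ones. None of 9 marker genes of other blood and tissue cells was in the table.

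Factors fall into groups by step. eIF1, eIF1A and eIF5 act in start codon selection. eIF2 carries the initiator tRNA as a complex with GTP, eIF2B recharges it with GTP, and the eIF2 kinases switch it off under stress. In erythroid cells the heme-regulated kinase, encoded by Eif2ak1, links globin synthesis to heme supply. eIF3 is the large scaffold on the small subunit, and the eIF4 group binds the cap, unwinds the mRNA leader and bridges to the ribosome.

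By the annotation, 481 members lie between coding exons, 12 in a 5′ UTR, 2 in a 3′ UTR and 5 in a noncoding transcript. Positions are 1-based on GRCm38, and each intron whose position is given lies between coding exons. The splice sites that carry the main contrasts are shown first, as deposited by the authors, 5′ to 3′ on the transcript strand. Each 5′ site has 3 exon and 6 intron bases, and each 3′ site has 20 intron and 3 exon bases. Capitals mark the first and the last 2 bases of the intron. Of the 500 members, 166 had sequences in the second deposited table. Eif3i intron 3 and Eif3k intron 2 are shown because they start with GTATCC. Eif4a2 intron 3 is shown for its small Fisher's exact p, picked after the values were seen. The others were among the least spliced, the most spliced or the most different between pools.
Eif3i intron 3, 5′ site: actGTatcc
Eif3i intron 3, 3′ site: tttcttaacaccttccccAGggg
Eif3k intron 2, 5′ site: catGTatcc
Eif3k intron 2, 3′ site: ttaatgcatcatgatgccAGcaa
Eif4g2 intron 13, 5′ site: cagGTaaga
Eif4g2 intron 13, 3′ site: tttctccctttctgaaatAGggg
Eif4g2 intron 14, 5′ site: gagGTacat
Eif4g2 intron 14, 3′ site: tgatttgttttcaattttAGatt
Eif4g2 intron 10, 5′ site: cagGTaaga
Eif4g2 intron 10, 3′ site: atatttttttaaaattacAGgat
Eif4g2 intron 8, 5′ site: acaGTaagt
Eif4g2 intron 8, 3′ site: taaacatgttcttttggtAGctt
Eif4g2 intron 20, 5′ site: aagGTgagg
Eif4g2 intron 20, 3′ site: atgctgtgtttccttttaAGgca
Eif4a2 intron 3, 5′ site: aagGTaaaa
Eif4a2 intron 3, 3′ site: atgtatcctactttttttAGggt
Eif3i intron 1, 5′ site: atgGTgagt
Eif3i intron 1, 3′ site: ccccggttctgtccccacAGaaa
Eif3m intron 2, 5′ site: aagGTttgt
Eif3m intron 2, 3′ site: tgctcttgatgcctatgtAGatg
Eif3e intron 1, 5′ site: gagGTgagg
Eif3e intron 1, 3′ site: aagttttttttttcttgcAGatt

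Most initiation factor introns were removed from most reads in both pools, and the poorly spliced ones sat in few genes. The median coSE of members was 0.900 over 198 uninduced introns and 0.871 over 145 induced ones. Over all introns of the table with 10 reads it was 0.933 and 0.947. Summed over reads, members were spliced in 5054 of 6031 uninduced observations, a coSE of 0.838, and in 3240 of 4059 induced ones, a coSE of 0.798, beside 0.861 in both pools for all introns. No unspliced read was found at 48 members before induction (24.2%; all introns 37.0%) and at 44 after it (30.3%; all introns 43.1%). A coSE under 0.5 was measured at 17 members (8.59%; all introns 7.26%) and at 19 members (13.1%; all introns 6.60%).

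The 17 introns under 0.5 in the uninduced pool came from 5 genes, with 11 in Eif4g2, 2 each in Eif3a and Eif5, and 1 each in Eif1 and Eif2s3y. The 19 in the induced pool came from 5 genes as well, with 9 in Eif4g2, 6 in Eif5, 2 in Eif1, and 1 each in Eif4a1 and Eif4a2. Without Eif4g2 the member medians were 0.909 over 180 introns and 0.900 over 125. The plot of coSE by gene shows the low introns of Eif4g2, Eif5 and Eif1 beside the other genes.

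**Figure D1:**
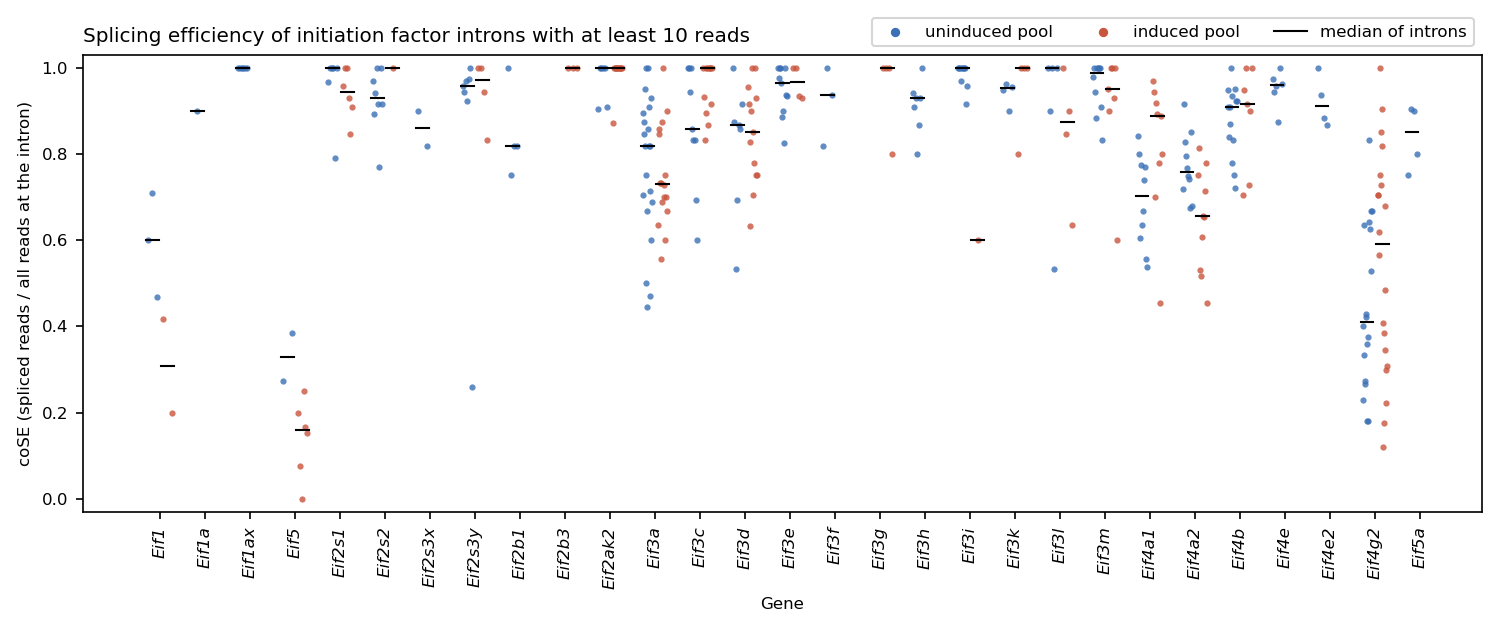
Splicing efficiency (coSE, vertical axis, share of reads spliced) of every initiation factor intron with at least 10 reads, by gene in order of role. Each point is 1 intron in the uninduced (blue) or induced (red) pool and each bar is the median of that gene's introns. Eif1, Eif5 and Eif4g2 have medians of 0.600, 0.329 and 0.411 in the uninduced pool, while Eif1ax, Eif2s1, Eif2ak2, Eif3i and Eif3l have medians of 1.

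Among the start codon selection genes, Eif1, Eif1ax and Eif5 stood at opposite ends of the scale. Eif1 encodes the factor that keeps the scanning ribosome open until a good start codon is met. Its intron 2 was spliced in 17 of 24 uninduced and 5 of 12 induced reads, and its intron 3, the last, in 15 of 32 and 5 of 25. Eif5 encodes the GTPase activator of eIF2. Its introns 4 and 5 were spliced in 3 of 11 and 5 of 13 uninduced reads and in 2 of 10 and 1 of 13 induced reads. At intron 6 of Eif5, which holds the small nucleolar RNA Snora28, 0 of 10 induced reads were spliced, where 3 counts, the limit used for a count of 0, would be the smallest detectable signal. Introns 7, 8 and 9 of Eif5 were spliced in 3 of 12, 2 of 12 and 2 of 13 induced reads, with at most 6 uninduced reads each. In contrast, all 103 uninduced observations over the 6 introns of Eif1ax, which encodes an eIF1A protein, were spliced, as were 28 of 30 induced ones. The 4 introns of the group that could be tested, 2 in Eif1 and 2 in Eif5, were all lower in the induced pool. Over all introns tested, 1534 of 4403 were lower. None of the 4 passed the adjusted Fisher threshold, where 1.61% of all introns did.

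Introns of the eIF2 group were spliced in most reads. The median coSE was 0.958 over 23 uninduced introns and 0.957 over 11 induced ones. Eif2s1, Eif2s2 and the paralogs Eif2s3x and Eif2s3y encode its subunits. The exception was intron 7 of Eif2s3y (chrY:1016192-1016589), where 6 of 23 uninduced reads were spliced, which is 0.261 with a 95% Wilson interval of 0.125 to 0.465. The 6 introns before it in the same gene had between 24 of 24 and 47 of 51 reads spliced. The annotation has 1 transcript that retains intron 7. Only 3 induced reads covered it, all spliced.

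The eIF2 kinases were read mainly through Eif2ak2, the kinase activated by double-stranded RNA. Its introns were spliced in 129 of 133 uninduced and 320 of 324 induced observations. Introns 3, 5 and 6 were among the deepest induced members without an unspliced read, with 34, 30 and 29 reads, the last level with Eif2s3y intron 1 at 29. Eif2ak1, the heme-regulated kinase, had 32 of 38 uninduced and 12 of 16 induced observations spliced, and none of its introns reached 10 reads, so none was tested. The eIF2B subunit genes had 4 uninduced introns with 10 reads, all in Eif2b1, with a median of 0.818. The 3 induced ones, all in Eif2b3, had no unspliced read.

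The eIF3 subunits gave the most introns, 87 uninduced and 65 induced, and their medians were 0.929 and 0.900. Eif3e and Eif3m had the deepest fully spliced introns of the uninduced pool, with 46 of 46 reads at Eif3e intron 1 (chr15:43278423-43282602) and 47 of 47 at Eif3m intron 2 (chr2:105013884-105014769). In the induced pool these were 21 of 21 and 18 of 20. Eif3a, which encodes the largest eIF3 scaffold subunit, had 250 of 326 uninduced and 183 of 241 induced observations spliced. Its introns ranged from 8 of 18 spliced at intron 10 to 15 of 15 at intron 7 and 13 of 13 at intron 13 before induction. Among its introns with 10 induced reads, intron 9 was lowest, with 10 of 18 reads spliced. Eif3l intron 4 was spliced in 8 of 15 and 7 of 11 reads while its introns 1 and 3 had 17 of 17 and 18 of 18 uninduced reads spliced.

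The eIF4 genes had lower medians than the eIF2 and eIF3 groups, 0.768 over 62 uninduced introns and 0.710 over 46 induced introns. Eif4e, the cap-binding protein, and Eif4b, a helicase cofactor, were not the low ones: their uninduced medians were 0.960 and 0.909. The helicase genes Eif4a1 and Eif4a2 had uninduced medians of 0.703 and 0.758, and Eif4g2 had 0.411. Eif4g2 encodes a scaffold related to eIF4G that lacks the eIF4E binding site. Among the later factors, Eif5a had an uninduced median of 0.850 over 4 introns. The eIF4E-binding proteins, Eif4a3 (the helicase of the exon junction complex) and Eif2d had no intron with 10 reads.

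The question put to the 2 pools was whether splicing of single introns differed after induction. In 18 genes, 117 member introns had 10 reads or more in each pool, and of these 54 had a higher coSE after induction, 51 a lower one and 12 the same. The mean over these introns was 0.777 before and 0.782 after induction, and the median difference was 0. By the two-sided Fisher's exact test with Benjamini-Hochberg adjustment over all 4403 introns tested, 0 members passed 0.05, where 1.61% of all introns did (0.363% higher and 1.25% lower in the induced pool). The smallest adjusted p of a member was 0.0831. At an unadjusted Fisher p under 0.05 there were 14 members, 9 higher and 5 lower in the induced pool, beside 7.97% of all introns (3.59% higher and 4.38% lower). They fell in 5 genes, with 8 in Eif4g2, 3 in Eif4a2, and 1 each in Eif3c, Eif3i and Eif4a1. Without Eif4g2, 6 of 99 members (6.06%) had such a p, which is below the share of all introns. With a chi-square test in place of Fisher's, 2 members passed, Eif3i intron 1 and Eif4a2 intron 3. The share of all introns that passed was not taken under that test, so this count has no background. A p above the threshold does not show that the pools were alike, at a median depth of 18 and 17 reads.

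**Figure D2:**
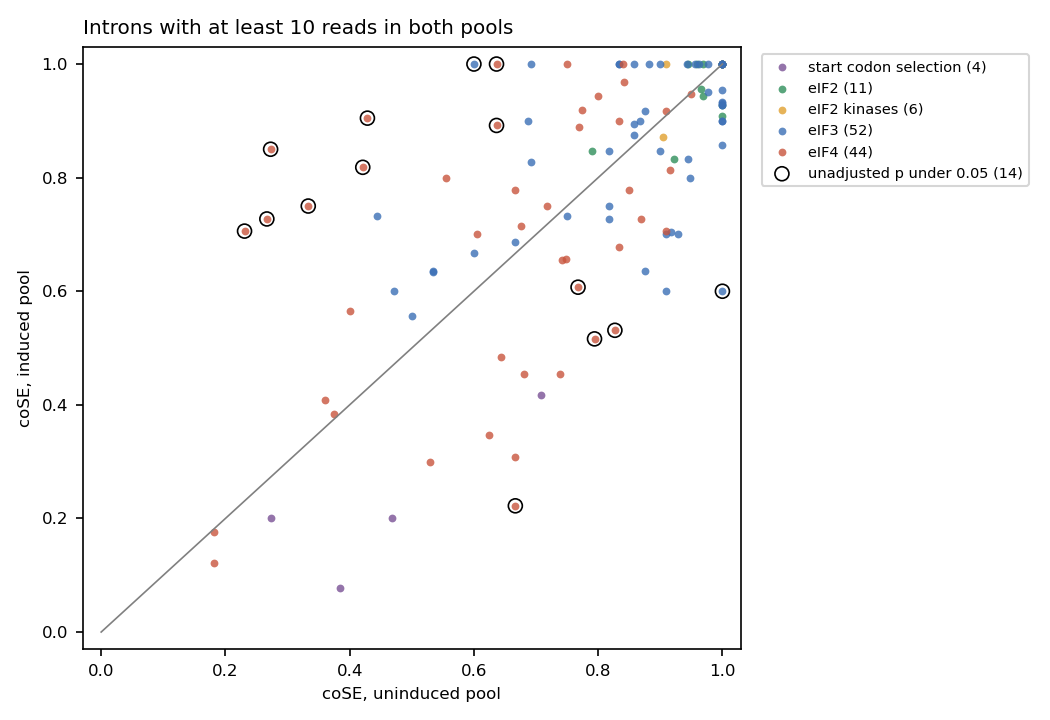
coSE of the 117 initiation factor introns with at least 10 reads in both pools, uninduced pool on the horizontal and induced pool on the vertical axis. Each point is 1 intron coloured by role, the line marks equal values, and rings mark the 14 introns with an unadjusted Fisher p under 0.05, 9 above the line and 5 below it.

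By role, the eIF3 introns split into 25 higher, 21 lower and 6 equal among 52 tested, with 2 at an unadjusted p under 0.05, a level reached by 7.97% of all introns. The eIF4 introns split into 24 higher and 20 lower among 44, with 12 at that level, of which 8 are introns of Eif4g2 that share reads. The eIF2 introns had 4 higher, 5 lower and 2 equal among 11, and the kinase introns 1 higher, 1 lower and 4 equal among 6, with none at that level in either group.

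Eif4g2 lies on chr7 on the minus strand and has 21 introns in the transcript used. Its coSE followed 3 stretches of introns, of which the first and the last differed between pools. This division was made after the values were seen and is given as a description. At introns 3 to 11, near the start of the gene, 42 of 114 uninduced observations were spliced, a summed coSE of 0.368, and 145 of 189 induced ones, a summed coSE of 0.767. All 8 of the 8 introns tested there were higher in the induced pool, 7 of them with an unadjusted Fisher p under 0.05. At introns 12 to 15 the summed coSE was 0.280 (26 of 93) and 0.266 (34 of 128), with 2 introns higher and 2 lower. At introns 16 to 21, the last of the gene, it was 0.651 (54 of 83) and 0.419 (57 of 136), and all 6 were lower in the induced pool, 1 of them with an unadjusted Fisher p under 0.05. The middle stretch was thus poorly spliced in both pools, and the stretches on either side differed in opposite directions.

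The single introns of Eif4g2 rest on few reads. At intron 8 (chr7:111077748-111078024, 277 bases), 3 of 11 uninduced reads were spliced, a coSE of 0.273 with a Wilson interval of 0.0975 to 0.566. Of 20 induced reads 17 were spliced, a coSE of 0.850 with an interval of 0.640 to 0.948. The unadjusted Fisher's exact p was 0.00433 and the adjusted p 0.168. These intervals did not overlap at introns 8 and 10. Intron 10 (chr7:111077324-111077408, 85 bases) had 6 of 14 and 19 of 21 reads spliced, with a Fisher adjusted p of 0.197. The other large differences of this direction were at intron 3 (3 of 13 and 12 of 17 reads), intron 6 (4 of 12 and 18 of 24) and intron 9 (4 of 15 and 16 of 22).

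In the other direction, Eif4g2 intron 20 (chr7:111073951-111074037, 87 bases) was spliced in 8 of 12 uninduced and 4 of 18 induced reads, with a Fisher adjusted p of 0.448. Intron 21, the last, had 8 of 12 and 4 of 13 reads spliced. Introns 13 (chr7:111076394-111076695) and 14 (chr7:111075713-111076279) were the lowest of all members in the uninduced pool, each with 4 of 22 reads spliced and an interval of 0.0731 to 0.385. After induction they had 4 of 33 and 6 of 34 reads spliced. Intron 14 holds the small RNA gene Gm23262. The 5′ site of intron 13 is the same 9 bases as those of introns 10, 18 and 19 of the gene, with a deposited 5′ score of 10.77, above the member median of 8.88. The 5′ score of intron 14 was 6.75, below that median. Their 3′ scores were 9.97 and 11.57, and the member median was 8.12.

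**Figure D3:**
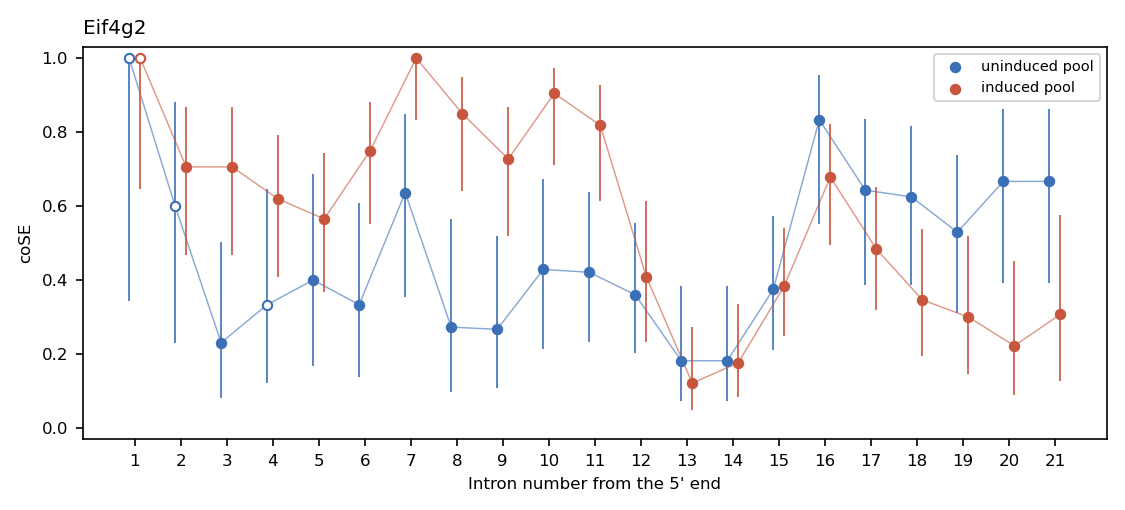
coSE (vertical axis) at each of the 21 introns of Eif4g2 from the 5′ end (horizontal axis), uninduced pool in blue and induced pool in red. Filled points have at least 10 reads, open points fewer, and bars are 95% Wilson intervals that cover counting error only; the induced values lie above the uninduced ones at introns 3 to 11 and below them at introns 16 to 21.

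Eif4a1 and Eif4a2 encode closely related forms of the eIF4A helicase, and their coSE differed in opposite directions between pools. Eif4a2 was the deepest member gene of the uninduced pool, with 860 of 1106 uninduced observations spliced (0.778) and 285 of 425 induced ones (0.671). Of its 10 tested introns, 8 were lower in the induced pool. Eif4a1 had 218 of 308 uninduced (0.708) and 229 of 281 induced observations spliced (0.815), and 8 of its 9 tested introns were higher. Whether the 2 genes differ in this respect was not tested, because introns of a gene share reads. How reads were divided between such paralogs, or processed pseudogenes, is not stated in the sources used here.

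The 3 introns of Eif4a2 with an unadjusted Fisher p under 0.05 were introns 3 to 5, with a summed coSE of 0.793 (276 of 348) and 0.563 (67 of 119), a stretch chosen after its values were seen. Intron 3 (chr16:23108852-23109119, 268 bases), which holds the small nucleolar RNA Snord2, had 86 of 104 uninduced reads spliced, which is 0.827 with an interval of 0.743 to 0.888. Of 32 induced reads 17 were spliced, a coSE of 0.531 with an interval of 0.364 to 0.691. The intervals did not overlap, and the Fisher adjusted p was 0.0855 over all introns. Restricted to introns with 20 reads in both pools, where fewer introns are tested, its adjusted Fisher p was 0.0352. Intron 4 (chr16:23109260-23109984) had 81 of 102 and 16 of 31 reads spliced, and intron 5 (chr16:23110154-23110233) 109 of 142 and 34 of 56, with Fisher adjusted p of 0.171 and 0.514. Intron 10, the last, had a gap of similar size on few reads, with 17 of 25 and 5 of 11 spliced. Introns 1 and 8 went slightly the other way, with 94 of 131 and 36 of 48, and 81 of 120 and 30 of 42 reads spliced.

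In Eif4a1, intron 5 (chr11:69668754-69669077) was spliced in 21 of 33 uninduced and 33 of 37 induced reads, with a Fisher adjusted p of 0.431. Intron 7 (chr11:69668334-69668404, 71 bases) was the one intron of the gene with the opposite direction. It was spliced in 17 of 23 uninduced and 15 of 33 induced reads, with a Fisher adjusted p of 0.648. The introns beside it, 6 and 8, had 28 of 36 and 16 of 18 induced reads spliced. The annotation has 2 transcripts that retain intron 7.

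**Figure D4:**
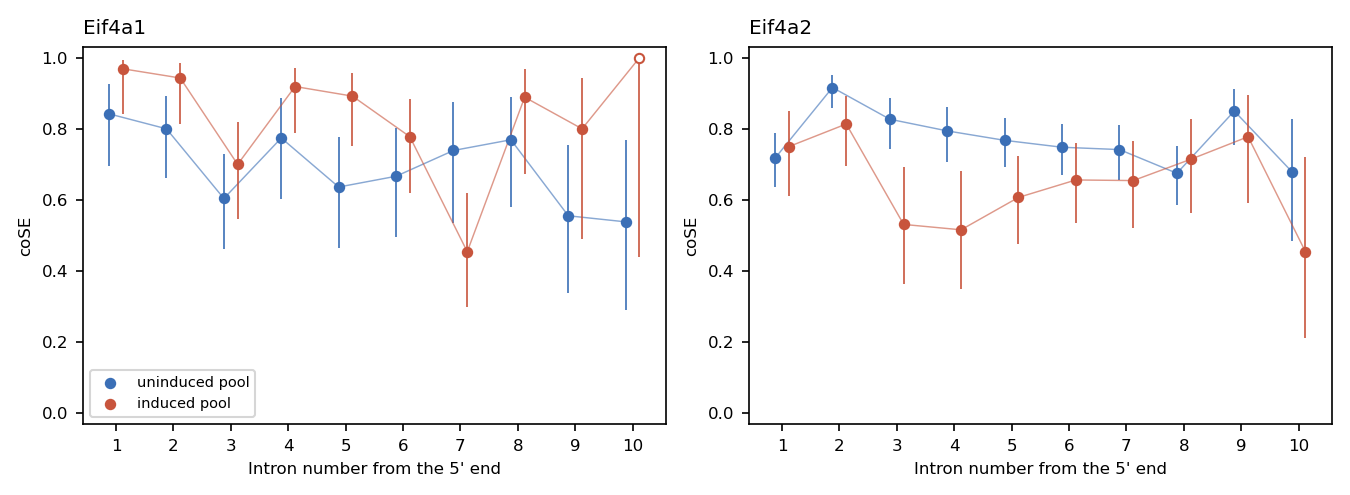
coSE (vertical axes) at the 10 introns of Eif4a1 (left) and of Eif4a2 (right), counted from the 5′ end (horizontal axes), uninduced pool in blue and induced pool in red with 95% Wilson intervals. Induced values lie above uninduced ones at 8 of 9 tested introns of Eif4a1 and below them at 8 of 10 of Eif4a2; the open point has fewer than 10 reads.

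Outside the eIF4 genes, the smallest p belonged to Eif3i, which encodes an eIF3 subunit built of WD repeats. At intron 1 (chr4:129600502-129600593, 92 bases) all 34 uninduced reads were spliced, with an interval of 0.898 to 1, and 6 of 10 induced reads, with an interval of 0.313 to 0.832. The unadjusted Fisher's exact p was 0.00155 and the adjusted p 0.0831. The annotation has 2 transcripts that retain this intron. Its other 9 introns had 4 to 9 induced reads each and were not tested. Eif3c intron 10 (chr7:126557826-126558634) went the other way, with 6 of 10 and 14 of 14 reads spliced and a Fisher adjusted p of 0.424. Eif3m intron 9 had 10 of 11 and 6 of 10 reads spliced, among the 5 largest differences toward lower coSE.

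In a splicing intermediate the first step is done, so the upstream exon is free at its 3′ end and still awaits ligation. NIC is their share of intermediates plus spliced reads, as deposited for 139 uninduced and 75 induced member lines. Values above 0 were found in 53 uninduced lines (38.1%; all introns 36.2%) and 36 induced lines (48%; all introns 37.8%). The mean NIC was 0.0541 and 0.0719, beside 0.0431 and 0.0440 over all introns, but the order turned with depth. Over lines with at least 20 reads it was 0.0262 (47 lines) and 0.0329 (23 lines) in members, below 0.0298 and 0.0397 over all introns. Summed over reads, intermediates made up 3.23% and 4.79% in members and 2.71% and 4.35% in all introns. At the median depth of 13 and 14 reads, 3 counts, the limit used for a count of 0, correspond to 23.1% and 21.4%. A NIC of 0 at a typical intron thus leaves room for a share up to that size. By Fisher's exact test, 0 of 48 members passed the adjusted threshold, where 0.0981% of 2039 introns did. At an unadjusted Fisher p under 0.05 there were 0 members, beside 1.67% of those introns. A chi-square test gave 2 members at the unadjusted level, and its share over all introns was not taken. After induction NIC was higher at 17 introns, lower at 11 and equal at 20, of which 19 had no intermediate in either pool.

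Of the 96 uninduced and 57 induced intermediates at members, many came from 3 genes of the eIF4 group. Eif4a2 had 32 uninduced and 13 induced ones, Eif4g2 had 5 and 17, and Eif4a1 had 2 and 10. At Eif4a1 intron 7, the intron with lower induced coSE, 2 of 11 uninduced and 5 of 13 induced molecules were intermediates. At the neighbouring Eif4a1 intron 8 there were 0 of 20 and 2 of 14, which gave the smallest unadjusted Fisher's exact p of a member, 0.162. Eif4a2 intron 7, host of Snora81, had 6 of 88 and 4 of 36. At Eif3l intron 4, 3 of 10 uninduced molecules were intermediates. Higher NIC values at Eif4g2 introns 8, 10, 13 and 14 in the uninduced pool rest on 1 to 3 molecules each.

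Features that the choice of genes did not use were then set beside coSE. The members' median length was 796 bases, against 1226 for all introns. Members of up to 150 bases had a median coSE of 0.769 over 37 uninduced introns and 0.807 over 30 induced ones, and those over 1000 bases 0.963 over 81 and 0.947 over 47. Across member introns Spearman's rho between length and coSE was 0.470 uninduced (198 introns of 27 genes) and 0.314 induced (145 introns of 20 genes), beside 0.372 and 0.383 over all introns. These points share genes, reads and libraries.

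With GC content, taken as that of the intron, rho was 0.221 and 0.342 in members and -0.0928 and -0.128 over all introns, so the sign differed. Without Eif4g2 the member values were 0.0601 and 0.201. With distance to the 3′ end of the transcript rho was 0.201 and 0.411 (all introns 0.236 and 0.316). With the deposited 5′ splice site score it was -0.111 and -0.159 (all introns 0.0468 and 0.0583, of opposite sign), and with the 3′ score 0.109 and -0.00867 (all introns 0.112 and 0.0822). Over introns with at least 20 reads the induced 5′ score gave -0.289, and the 3′ score turned sign in both pools (-0.0794 and 0.132).

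Introns that hold a small RNA gene or are kept in an annotated transcript had lower medians. Of the members, 16 hold an annotated small RNA gene, with 5 in Eif4a2, 3 in Eif4a1, 2 in Eif3a and 1 each in Eif5, Eif4g2, Eif3c, Eif2b3, Eif4g1 and Eif3b. Their median coSE was 0.745 over 12 uninduced introns, against 0.909 over the other 186, and 0.724 over 14 induced introns, against 0.895 over 131. For all host introns in the table the medians were 0.893 and 0.897, against 0.933 and 0.947 for all introns that hold none, a smaller gap. Of the 16, 8 lie in Eif4a1 and Eif4a2, and within these genes host and other introns overlapped. In Eif4a2 the medians of 5 host and 5 other introns were 0.748 and 0.768 uninduced and 0.656 and 0.607 induced. In Eif4a1 the medians of 3 host introns were 0.636 and 0.892, and those of the others 0.739 (7 introns) and 0.833 (6 introns). Members retained in at least 1 annotated transcript had medians of 0.740 (30 introns) and 0.644 (26), against 0.909 (168) and 0.900 (119) for the rest. The same held over all introns, with 0.766 and 0.769 against 0.944 and 0.962.

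A pair of members, both in eIF3 genes, started with GTATCC. Introns removed by the minor spliceosome typically start with GTATCC or ATATCC and carry a branch site that contains CTTAAC near the 3′ end. The first 6 intron bases were searched for GTATCC and ATATCC, on the transcript strand, and 2 of 166 members (1.20%) and 35 of 6537 introns in the second table (0.535%) held one. Eif3i intron 3 (chr4:129596940-129598954) also held CTTAAC in its last 20 bases, as did 48 of 6537 introns (0.734%). Its deposited 5′ score of -2.15 was the lowest of the members, and yet 33 of 33 uninduced and 8 of 8 induced reads were spliced. Eif3k intron 2 (chr7:28977276-28977869) had a 5′ score of 1.38 and the lowest 3′ score of the members, -0.45, and was spliced in 55 of 58 and 12 of 15 reads. CTTAAC was not in its window of 20 bases. The 32 introns of the table with either start and 10 uninduced reads had a median coSE of 0.938, next to 0.939 for all introns of the second table with 10 uninduced reads. One member, Eif3a intron 5, started with GC, and it was spliced in 18 of 22 and 11 of 13 reads.

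The number of observations over a gene's introns, relative to the pool's total, gave the level of nascent RNA of each gene in the 2 pools. Observations are not molecules, since a read counts at each intron it covers. In bulk RNA, fewer cells making a transcript and less RNA per cell cannot be told apart. Among 38 member genes with at least 10 observations in each pool, 19 had a higher and 19 a lower level in the induced pool. Their median log2 ratio was 0.01, beside 0.08 over 3529 transcripts of the whole table. Past 2-fold, 10 members were higher (19.1% of all transcripts were) and 8 were lower (16.1% of all transcripts), which are 26.3% and 21.1% of the members. With 1 pool a group, the ratios have no replicate check. With the reads of the globin genes, Alas2 and Slc4a1 left out of the pool totals, the member median was 0.04, with 10 members past 2-fold higher and 6 past 2-fold lower.

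Eif2ak2 had 133 uninduced and 324 induced observations, with at most 21 and 34 reads at any single intron. Its mean was 21.3 and 77.3 reads per intron for each 1000000 observations of the pool, with a log2 ratio of 1.86. By its intron with the most reads over both pools, 21 and 31 reads, the ratio was 2.20 with a 95% counting interval of 1.22 to 4.03. Eif3d, a subunit that can bind the cap of some mRNAs, had 145 and 281 observations and a log2 ratio of 1.53. The ratio was 2.98 (1.55 to 5.96) at its deepest intron. For Eif4g2 the log2 ratio was 1.26 over 297 and 477 observations, and the ratio was 2.42 (1.42 to 4.21) at the deepest intron. Eif3c had 195 and 264 observations and a log2 ratio of 1.01. Eif2d, Eif2b4 and Eif2b5 had larger ratios on only 10 to 12 uninduced observations. No intron of these genes had more than 3, 2 and 2 uninduced reads, in that order.

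In the other direction, Eif4e had 174 and 30 observations, 69.6 and 17.9 reads per intron on that scale. Its log2 ratio was -1.96, with a ratio of 0.235 (0.0813 to 0.561) at its deepest intron. Eif3i had 292 and 67 observations and a log2 ratio of -1.55, and Eif3k 208 and 54 observations and -1.37. For Eif4a2 the log2 ratio was -0.80 and for Eif4a1 0.44, with deepest intron ratios of 0.686 (0.502 to 0.929) and 1.24 (0.795 to 1.93). Eif3f had 51 uninduced and 4 induced observations, too few in the induced pool for a ratio.

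**Figure D5:**
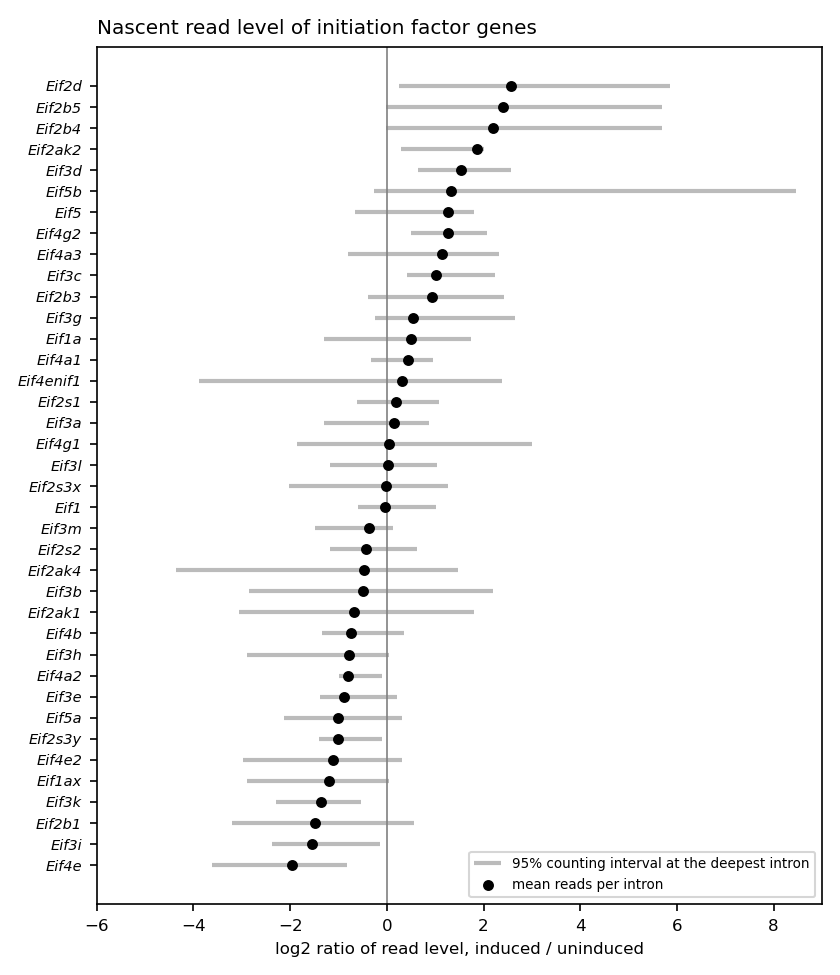
Log2 ratio of nascent read level, induced over uninduced pool (horizontal axis), for 38 initiation factor genes (vertical axis). Each had 10 observations or more in each pool, summed over its introns. Points are ratios of mean reads per intron over the pool total. Grey bars are 95% counting intervals of the ratio at the intron with the most reads. On each side of 0 lie 19 genes, from -1.96 for Eif4e to 2.58 for Eif2d, which had at most 3 uninduced reads at an intron.

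Other genes of the pathway without an Eif symbol were read the same way. Of 27 listed genes, 25 were in the table and 35 introns of 8 genes could be tested. Of these, 17 were higher and 16 lower in the induced pool, 0 passed the adjusted threshold (1.61% of all introns did) and 5 had an unadjusted Fisher p under 0.05 (7.97% of all introns). Those were Ddx3x intron 8 (17 of 44 and 0 of 12 reads spliced), Mknk1 introns 4 and 6 (10 of 13 and 22 of 22, 6 of 10 and 15 of 15), Ddit3 intron 3 (16 of 16 and 8 of 12) and Atf4 intron 2 (7 of 21 and 9 of 12). Ddx3x encodes an RNA helicase that assists scanning, Mknk1 a kinase of eIF4E, and Atf4 and Ddit3 transcription factors of the stress response downstream of the eIF2 kinases. Among the 4 exon junction partners of Eif4a3, 3 introns of 1 gene were tested, all lower in the induced pool and none past the threshold.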

How the data were processed

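Long reads of chromatin RNA from MEL cells were used as 2 tables deposited by the authors, each with 1 line per intron and group. Per the file headers, the first holds a raw count of spliced and one of unspliced reads. The other holds a count of spliced reads and of intermediates and a deposited fraction (NIC), which equals intermediates over intermediates plus spliced reads. It also holds GC content, deposited as a percent, and a score per splice site deposited by the authors. The scoring program is not given in the sources used here. The submitters' processing notes list cutadapt, minimap2, SAMtools, bedtools and Bowtie, and the builds mm10 and dm3, with no roles. Which runs were pooled, and how molecules were deduplicated, is not given in the sources used here, so intervals and tests cover counting error only.

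Lines were assigned to the untreated and treated long-read groups by their condition name. Members were matched by transcript to GENCODE release M21 on GRCm38. After shifting starts by 2 and ends by 1 to 1-based positions, all 500 member introns lay on annotated introns, and 28 came from another transcript version. Here coSE was computed as spliced over all reads at introns with at least 10 reads. Each difference had a two-sided Fisher's exact test, with Benjamini-Hochberg adjustment over all 4403 introns (scipy 1.17.1), after a check on simulated data. Single shares have 95% Wilson intervals, ratios of reads exact 95% intervals, and a count of 0 was limited at 3 counts. Levels are mean reads per intron over the pool total. Alternatives were other coverage minimums, a chi-square test, introns present in all annotated transcripts, other level totals, and leaving out Eif4g2, the last added after the data were seen.

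Introns described singly were the 5 largest differences in each direction, the 5 lowest coSE and the 5 highest NIC values in each pool, the 3 deepest without an unspliced read, and any past the threshold. The introns with an unadjusted p under 0.05, the stretches of Eif4g2 and Eif4a2, and the GTATCC introns were picked after their values were seen. The members and lists were chosen with earlier results of these data known.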

Additional observations from a re-analysis of the deposited data

How the results depend on the processing

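No paired analysis was possible because the tables pool the replicates, so neither a replicate block nor leaving out a replicate could be run. The number of members past the adjusted threshold for coSE was 0 with at least 1 read, 1 with at least 20 reads (Eif4a2 intron 3) and 2 with a chi-square test. Their number at an unadjusted p under 0.05, 14 as reported, was 21 with at least 1 read, 19 with a chi-square test, 4 with at least 20 reads, 9 over introns present in all annotated transcripts and 6 without Eif4g2. For NIC it was 0 and, with a chi-square test, 2. The share of all introns was taken in the main setting only, so these counts under an alternative have no background beside them. Mean NIC of members with at least 20 reads was 0.0262 uninduced and 0.0329 induced, under 0.5 of the values over all lines. Median coSE with no minimum was 0.977 uninduced and 1 induced, where introns with 1 read count as much as deep ones. Of the correlations, that of the 3′ score changed sign with at least 20 reads (-0.0794 uninduced, 0.132 induced). With GC content the uninduced rho was 0.0613 with at least 20 reads and 0.0601 without Eif4g2, and the induced rho 0.201 without Eif4g2. In the induced pool with at least 20 reads it was 0.500 for length, -0.289 for the 5′ score and 0.587 for distance to the 3′ end; the cause was not tested. The log2 level ratio of Eif2ak2 was 1.27 by the highest single intron. Eif2s3y, at -1.01 past 2-fold lower, was within it by the highest single intron (-0.74) and without the globin, Alas2 and Slc4a1 reads in the totals (-0.98). Some of the values above included, 35 values over the members and 86 of single introns or genes kept their direction under an alternative. Counts among them moved by up to 1.5 times and correlations by up to 0.1. For single introns the coSE difference could not move, since each alternative used the same read counts, so its direction is no check. Only the side of the adjusted threshold was open to change there, and the tested introns among the 86 kept it.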
